A study of Mus musculus with 3 samples.

Results

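A set of 9 genes that mark resident macrophages of the marrow, or that such macrophages use to take up and recycle red cells, was followed in mouse bone marrow (BM) during treatment with LECT2. They were Emr1, Siglec1, Mrc1, Cd163, Mertk, Axl, Hmox1, Slc40a1 and Spic, taken by name from 17250 gene names in the deposited tables. In flushed BM the 6 surface receptors had higher levels after 3 and after 5 days of LECT2 than at 0 days, from 1.52-fold for Emr1 to 4.13-fold for Siglec1 at 5 days in RPKM (read counts divided by gene length and by the total of the library). Hmox1 and Spic differed less, and Slc40a1 was 1.40-fold higher at 3 days and 0.961-fold at 5 days. These contrasts move with gene length, because longer genes had higher ratios throughout. With that trend removed, the log2 ratios at 5 days were 0.12 for Emr1, 0.17 for Axl, 0.24 for Hmox1, 0.36 for Spic and −0.56 for Slc40a1. Spic had few reads, with a counting interval of −0.08 to 0.64 before this step, so that its rank among them is not settled. A gene 2-fold higher or lower was called changed if it reached 1 RPKM in a library compared, as Mertk did only after LECT2. Siglec1 and Mertk reached that size at 3 days, beside 4.08% of all genes that were 2-fold higher, and Siglec1, Mertk and Cd163 at 5 days, beside 15.5%, although neither Mertk at 3 days nor Cd163 at 5 days did so under TMM scaling or with the trend on gene length removed. There was 1 library per time point.

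The study asked which soluble factors of macrophages or osteolineage cells might carry the effect of LECT2, a cytokine made by the liver, on haematopoietic stem cells. The 3 groups were C57BL/6 mice aged 6 to 8 weeks, male according to the methods, given LECT2 for 0, 3 or 5 days. Recombinant LECT2 made in CHO cells, a hamster ovary cell line, was injected under the skin once a day at 300 μg per kg for 3 or 5 days. The label of the 0-day library names no injection, so that injection itself and LECT2 cannot be told apart, and the number of mice behind a library was not given in the sources used here. Marrow was flushed from 4 kinds of bone with no sorting described, although a legend of the study calls the sequenced cells mononuclear, and poly(A) RNA was sequenced. In all, 15146983 to 15523952 reads were counted on genes per library, so that 1 read on a transcript of 1000 bases was worth 0.0644 RPKM at 0 days. Each gene of the set had 1 row in the tables. With 1 library for each time point no difference could be tested against variation between mice, and every interval below is a 95% interval for counting error only, since the libraries carried no molecular identifiers and copies made by PCR count again. In bulk marrow, fewer cells of a type and less RNA per cell cannot be told apart.

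In the marrow, a central macrophage surrounded by maturing erythroblasts forms the erythroblastic island. The macrophage holds the erythroblasts through adhesion receptors, engulfs the nuclei they expel and, together with macrophages of the spleen and liver, digests old red cells. Haem from these meals is opened by haem oxygenase, and the iron leaves the cell through ferroportin or is stored in ferritin.

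All 9 genes are protein coding in GENCODE M21 (GRCm38). Emr1, now named Adgre1, lies on the plus strand at chr17:57358691-57483527 and has 22 exons in its longest transcript. Siglec1, at chr2:131069220-131086765, Mrc1, at chr2:14229392-14332057, and Mertk, at chr2:128698956-128802894, share chromosome 2, with Siglec1 on the minus strand. The Mertk locus also holds Gm14011, an antisense gene, and the protocol describes no strand marking, so that reads of the overlap cannot be assigned to one of them. Mir511, a microRNA, lies inside Mrc1 on the same strand. Cd163 lies at chr6:124304656-124330527, Axl at chr7:25757273-25788705, Hmox1 at chr8:75093621-75100589, Slc40a1 at chr1:45908068-45926523 and Spic at chr10:88674772-88685015.

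Promoter sequences of GRCm38.p6 were matched in RefSeq for 5 of the 9 genes, Mrc1, Axl, Cd163, Mertk and Spic. The 200 bases before the RefSeq start are shown for the 4 receptors among them, a choice made with their higher levels after LECT2 known. PU.1, the master factor of macrophages, reads a purine-rich core for its binding. A link between this core and the levels was not tested. Capitals mark TTCCTC, which is the core GAGGAA on the opposite strand. The windows were chr2:14229214-14229413 on the plus strand for Mrc1, chr7:25788734-25788933 on the minus strand for Axl, chr6:124304451-124304650 on the plus strand for Cd163 and chr2:128698715-128698914 on the plus strand for Mertk. By GENCODE, the last 22 bases of the Mrc1 window already belong to an exon.
Mrc1: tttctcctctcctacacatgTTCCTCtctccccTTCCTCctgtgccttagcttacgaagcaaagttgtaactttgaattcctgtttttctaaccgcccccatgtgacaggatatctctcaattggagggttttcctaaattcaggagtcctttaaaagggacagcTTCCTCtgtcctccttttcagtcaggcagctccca
Axl: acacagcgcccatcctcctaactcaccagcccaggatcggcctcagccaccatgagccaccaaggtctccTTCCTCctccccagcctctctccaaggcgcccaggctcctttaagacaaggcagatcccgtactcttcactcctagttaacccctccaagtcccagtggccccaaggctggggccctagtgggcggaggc
Cd163: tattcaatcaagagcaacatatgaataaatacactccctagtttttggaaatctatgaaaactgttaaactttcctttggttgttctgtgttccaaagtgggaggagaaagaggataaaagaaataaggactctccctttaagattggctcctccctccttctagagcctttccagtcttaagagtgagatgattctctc
Mertk: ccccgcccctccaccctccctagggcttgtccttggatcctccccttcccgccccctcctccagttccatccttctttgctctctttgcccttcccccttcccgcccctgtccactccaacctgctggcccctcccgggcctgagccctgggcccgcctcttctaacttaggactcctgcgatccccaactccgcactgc
The core was found in Mrc1 at 180 to 175, 167 to 162 and 35 to 30 bases before the start, and in Axl at 130 to 125 bases before it. Neither strand of the 250 bases before the start held it in Cd163, Mertk or Spic. Among 32851 promoters of the same length 23.3% held at least 1 such core, so that 2 of 5 is a description only. The letters TGANTCA of AP-1 (6.75% of all promoters), TGACNNNGC of the antioxidant response element (10.2%), CACGTG of the E-box (6.02%) and TATAAA of the TATA box (12.4%), each searched on both strands, were in 0 of the 5. With 1 motif found, no matches of different motifs overlapped. The promoters differed in base composition, from 36.8% G and C in Cd163 to 63.6% in Mertk, against a median of 52.4% over all promoters.

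The surface markers of the macrophage were present in every library. Emr1 encodes F4/80, the adhesion receptor by which mouse macrophages are usually recognised. Its reads numbered 584 at 0 days, 857 after 3 days and 887 after 5 days, which makes 11.6, 17.4 and 17.6 RPKM. Both libraries after LECT2 lay above the library at 0 days and close to each other. The log2 ratio against 0 days, computed on RPKM + 0.1 throughout, came to 0.58 after 3 days (interval 0.44 to 0.74) and to 0.60 after 5 days (0.45 to 0.76). The 5-day value was 0.29 under TMM, a scaling of edgeR that rests on the genes that differ least, and 0.12 with the length trend removed. Between 5 and 3 days it was 0.01 (−0.12 to 0.15) with the deposited RPKM and −0.21 under TMM.

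Siglec1 encodes CD169, a sialic acid-binding lectin on macrophages that line sinuses and hold erythroblasts, and its locus was used to deplete macrophages in other experiments of the study. It was counted with 109, 315 and 450 reads at 0, 3 and 5 days, or 1.09 RPKM (interval 0.897 to 1.32), 3.24 (2.89 to 3.61) and 4.51 (4.11 to 4.95). The 3 libraries were separate and in the order of the days. Against 0 days the log2 ratio was 1.48 at 3 days (1.25 to 1.89) and 1.95 at 5 days (1.74 to 2.36), above 99.2% and 98.7% of the genes that averaged at least 1 RPKM. Between 5 and 3 days it was 0.47 (0.27 to 0.69), and 0.25 under TMM (0.05 to 0.47). Against 0 days no other member moved as far.

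Of the scavenger receptors, Mrc1 (CD206) is the mannose receptor, which clears glycoproteins with exposed mannose. It had 484, 816 and 958 reads, or 5.86, 10.1 and 11.6 RPKM. Its log2 ratio was 0.78 at 3 days (0.63 to 0.95) and 0.97 at 5 days (0.83 to 1.15), the latter 0.67 under TMM. At 1.98-fold it stayed just under the 2-fold size at 5 days, and between 5 and 3 days it had 0.20 (−0.03 under TMM). Cd163 encodes the receptor for haemoglobin bound to haptoglobin. It had 244, 367 and 546 reads, or 3.50, 5.39 and 7.83 RPKM. The log2 ratio was 0.61 at 3 days (0.39 to 0.86), 1.14 at 5 days (0.94 to 1.39) and 0.53 between 5 and 3 days (0.35 to 0.73), the last of which was 0.31 under TMM. At 5 days, 2.24-fold, Cd163 was just inside the 2-fold size.

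Mertk and Axl are receptor tyrosine kinases of the TAM family, which bind apoptotic cells and expelled erythroblast nuclei through bridging ligands. Mertk was the scarcest member, with 37, 79 and 118 reads, or 0.669 RPKM (0.471 to 0.922), 1.46 (1.16 to 1.82) and 2.13 (1.77 to 2.56). Its 0-day level lay under those after LECT2. For Mertk the log2 ratio was 1.02 at 3 days (0.55 to 1.73) and 1.54 at 5 days (1.13 to 2.25), above 96.5% and 96.3% of all genes, and the wide intervals follow from the few reads. Between 5 and 3 days it was 0.51 (0.12 to 0.97), and 0.30 under TMM with an interval that included 0 (−0.10 to 0.75). Axl had 804, 1263 and 1445 reads, or 10.2, 16.4 and 18.3 RPKM, and so was far more abundant than Mertk. Its log2 ratio was 0.68 at 3 days (0.56 to 0.82) and 0.84 at 5 days (0.72 to 0.97), the latter 0.53 under TMM, and 0.16 between 5 and 3 days (−0.06 under TMM).

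The genes of haem and iron were the most abundant members and behaved less uniformly. Hmox1 encodes haem oxygenase 1, the enzyme that opens the haem ring and releases iron. It had 1717, 1885 and 2104 reads, or 67.7, 76.2 and 83.0 RPKM. The log2 ratio was 0.17 at 3 days (0.08 to 0.27) and 0.29 at 5 days (0.20 to 0.39) with the deposited RPKM, but −0.01 at 5 days under TMM, so that its direction at 5 days depended on the scaling. Slc40a1 encodes ferroportin, the exporter through which iron leaves macrophages, and erythroblasts make it too. It had 1914, 2619 and 1838 reads, or 36.5, 51.2 and 35.0 RPKM. Only the 3-day library was high. The log2 ratio was 0.49 at 3 days (0.40 to 0.57), −0.06 at 5 days (−0.15 to 0.04) and −0.54 between 5 and 3 days (−0.63 to −0.46), and the last stood at percentile 7.21 of all genes. Under TMM the values at 5 days were −0.36 against 0 days and −0.77 against 3 days, and −0.56 and −0.84 with the length trend removed. Erythroid markers as a list had a median log2 ratio of 0.06 at 3 days, with 14 of 24 above 0, and of 0.09 at 5 days, also with 14 above 0, or −0.22 under TMM. Their summed level, most of it from globin genes, went from 6140 to 4954 and 2299 RPKM. The part of erythroid cells in the values of Slc40a1 was not tested.

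Spic encodes the transcription factor by which red pulp macrophages and some marrow macrophages are specified and which haem induces. It had 122, 128 and 148 reads, or 6.21, 6.67 and 7.54 RPKM. The intervals of all 3 libraries overlapped. The log2 ratio was 0.10 at 3 days (−0.26 to 0.47) and 0.28 at 5 days (−0.08 to 0.64), and −0.03 at 5 days under TMM scaling. A change of Spic was not detectable at this depth, and the interval at 5 days leaves room for a log2 ratio of up to 0.64.

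**Figure D1:**
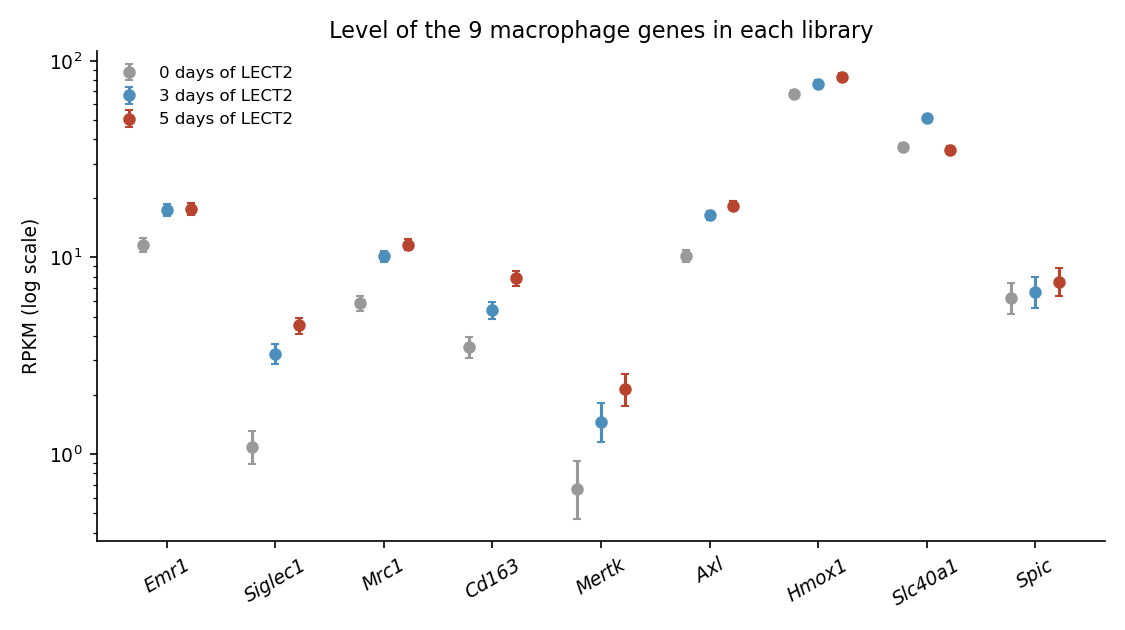
Level of each macrophage gene in the libraries of 0, 3 and 5 days (grey, blue and red), in RPKM on a log axis, with bars for the 95% Poisson interval of the reads and 1 library per point. The 6 receptors from Emr1 to Axl were lowest at 0 days, Hmox1 and Spic differed less, and Slc40a1 was highest at 3 days. The intervals of Hmox1 at 0 and 5 days were apart, while those of Spic overlapped.

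The order of the levels shifted among the receptors. At 0 days the order in RPKM was Hmox1, Slc40a1, Emr1, Axl, Spic, Mrc1, Cd163, Siglec1 and Mertk. The counting intervals overlapped for the neighbours Emr1 and Axl, Spic and Mrc1, and Siglec1 and Mertk. At 5 days Axl stood before Emr1, with overlapping intervals, and Mrc1 and Cd163 had both passed Spic, Cd163 with an interval that overlapped that of Spic. Among the genes detected in a library, Hmox1 went from percentile 92.7 at 0 days to 94.3 at 5 days and Siglec1 from 32.2 to 45.9.

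Ratios of 2 genes within a library do not depend on how the libraries are scaled, but they can move with the length trend where the genes differ in length. Changes are therefore also given with that trend removed, which was chosen after seeing the data. Siglec1 was 0.0942 of Emr1 at 0 days (0.0761 to 0.116), 0.186 at 3 days (0.163 to 0.211) and 0.256 at 5 days (0.228 to 0.287), so that the CD169 transcript was higher relative to that of F4/80 at both times by more than counting error. On the log2 scale this ratio changed by 0.90 and 1.35, or by 0.62 and 1.05 with the trend removed. Mertk relative to Axl went from 0.0656 (0.0459 to 0.0913) to 0.0892 (0.0702 to 0.112) and 0.116 (0.0957 to 0.141), and its intervals at 0 and 5 days were apart, with a log2 change of 0.34 at 3 days and 0.70 at 5 days, or 0.49 and 0.84 with the trend removed. Cd163 relative to Emr1 was 0.302 at 0 days and 0.309 at 3 days, then 0.445 at 5 days (0.399 to 0.495), and its log2 changes of 0.03 and 0.54 became −0.12 and 0.40 with the trend removed. Mrc1 relative to Emr1 was 0.505 at 0 days (0.447 to 0.571) and 0.659 at 5 days (0.600 to 0.722), and its log2 changes of 0.19 at 3 days and 0.37 at 5 days became −0.02 and 0.16 with the trend removed. Spic relative to Emr1 was 0.535 at 0 days (0.437 to 0.652) and 0.428 at 5 days (0.357 to 0.510), with overlapping intervals, and its log2 changes of −0.48 at 3 days and −0.32 at 5 days became −0.01 and 0.24 with the trend removed, so that the direction at 5 days turned. The exporter relative to the haem enzyme, Slc40a1 to Hmox1, was 0.539 (0.505 to 0.576), 0.672 (0.633 to 0.713) and 0.422 (0.396 to 0.450) at 0, 3 and 5 days, and all 3 intervals were apart. Its log2 change of 0.32 at 3 days did not outlast removal of the trend, which gave −0.05, while −0.35 at 5 against 0 days became −0.79 and −0.67 between 5 and 3 days became −0.74.

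**Figure D2:**
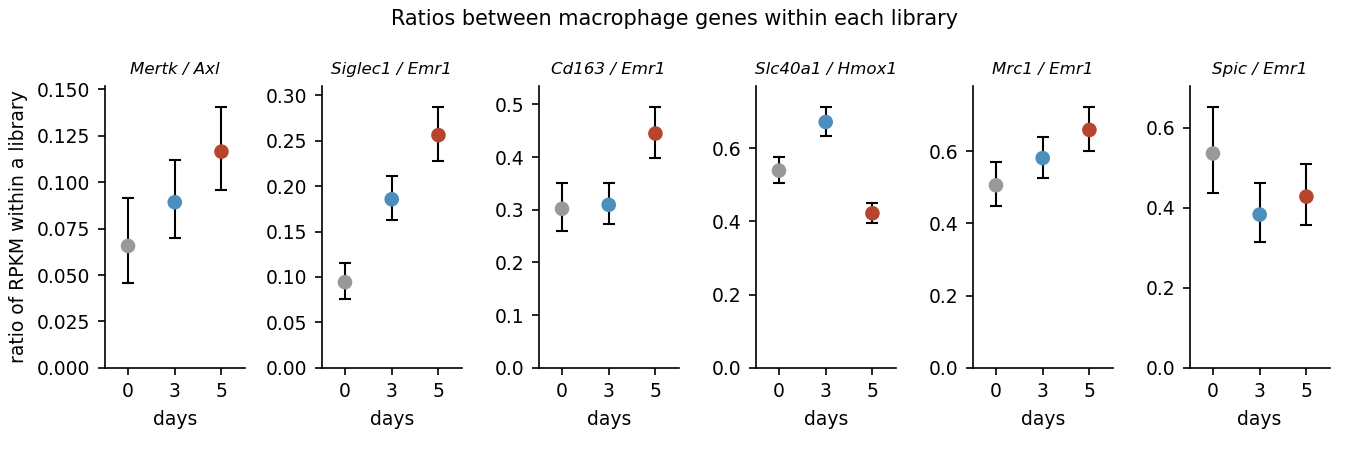
Ratio of the RPKM of 2 macrophage genes within each library, by day, with bars for the exact 95% interval of the 2 read counts and an axis that starts at 0. Siglec1 relative to Emr1 was 0.0942, 0.186 and 0.256 at 0, 3 and 5 days, and Slc40a1 relative to Hmox1 was lowest at 5 days. Its 3-day value was above that at 0 days, but not once the trend on gene length was removed (log2 change of 0.32 and −0.05).

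The size of these differences was read against all genes. At 3 days 2 of the 9 members, Siglec1 and Mertk, were at least 2-fold higher, where 4.08% of 11325 genes were, and 0 were at least 2-fold lower, where 2.41% were. At 5 days Siglec1, Cd163 and Mertk were at least 2-fold higher, 3 of 9, beside 15.5% of 11497 genes, and 0 were lower, beside 5.91%. Mertk had 0.669 RPKM at 0 days, so that it entered both counts only through the libraries after LECT2. With no minimum of RPKM, 2 and 3 of 9 were again higher, beside 4.8% and 14.9% of all genes. Between 5 and 3 days 0 of the 9 were 2-fold higher and 0 lower, beside 1.95% and 3.45% of 11375 genes. Of all genes called, 62.9% were higher at 3 days, 72.4% at 5 days and 36.1% between 5 and 3 days. These splits depended on the scaling and were 49.2%, 41.3% and 10.6% under TMM and 58.8%, 39.9% and 11.8% with the trend on gene length removed. Under TMM the members called were Siglec1 at 3 days, beside 3.12% of all genes, and Siglec1 and Mertk at 5 days, beside 7.13%. Cd163 at 5 days, 2.24-fold with the deposited RPKM, then had a log2 ratio of 0.84.

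The median log2 ratio of the 9 members was 0.61 at 3 days and 0.84 at 5 days, and that of 11144 genes with an average of 1 RPKM or more was 0.10 and 0.31. All 9 members lay above the median of all genes at 3 days, Spic by less than 0.01. At 5 days 6 did, while Hmox1, Spic and Slc40a1 lay below it. Between 5 and 3 days the members' median was 0.17 and that of all genes 0.25, with Siglec1, Cd163 and Mertk above the latter. The scaling moved both together. Under TMM the median of all genes was 0.02, 0.01 and 0.03 in the 3 comparisons and that of the members was 0.53, 0.53 and −0.05. Relative to all genes, the members therefore stood 0.51 higher at 3 days, 0.53 higher at 5 days and 0.07 lower between 5 and 3 days under either scaling. The comparisons share their libraries and are not independent.

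Gene length also moved with the ratios. Over all genes the median log2 ratio at 5 days was −0.11 below 2000 bases, 0.39 from 2000 to under 4000 bases and 0.70 from 4000 bases. Hmox1 and Spic, of 1634 and 1266 bases, fall in the shortest class and had 0.29 and 0.28. Emr1 (3245 bases), Mertk (3564) and Slc40a1 (3380) fall in the middle class. Siglec1, the longest member with 6427 bases, Mrc1, Cd163 and Axl are over 4000 bases, and their median was 1.06 at 5 days and 0.73 at 3 days, where all genes of that class had 0.70 and 0.43. With a smooth trend on length removed, the log2 ratio of Siglec1 was 1.00 at 3 days and 1.18 at 5 days, and that of Mertk 0.78 and 1.01. At 3 days they then stood at percentiles 97.7 and 95.6 of all genes. Emr1, Mrc1, Cd163 and Axl were left with 0.12, 0.28, 0.52 and 0.17 at 5 days. Hmox1 and Spic, in contrast, had larger ratios at 3 days after this step, 0.31 and 0.37. The median of the 9 was then 0.36 at 3 days and 0.28 at 5 days, with 9 and 8 members above all genes. The trend was read at the gene lengths behind the RPKM. The longest GENCODE transcripts differ from these for some members, with 2290 bases for Spic, 4302 for Mertk, 4265 for Axl and 3928 for Slc40a1. Other lengths were not tried.

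**Figure D3:**
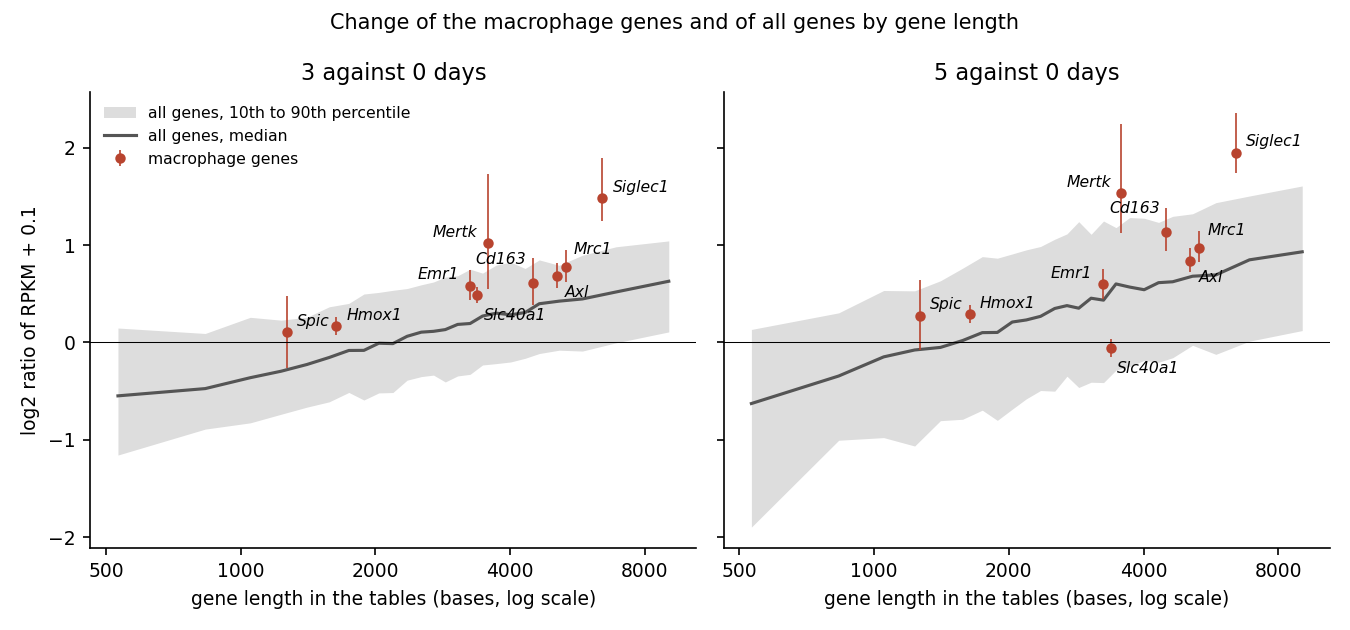
Log2 ratio of RPKM + 0.1 against gene length (log axis), at 3 days and at 5 days against 0 days. The line and band are the median and the 10th to 90th percentile of all genes in 25 bins of length, and the red points are the macrophage genes with counting intervals. Siglec1 and Mertk lay above the band at both times, and the ratio of all genes increased with length.

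**Figure D4:**
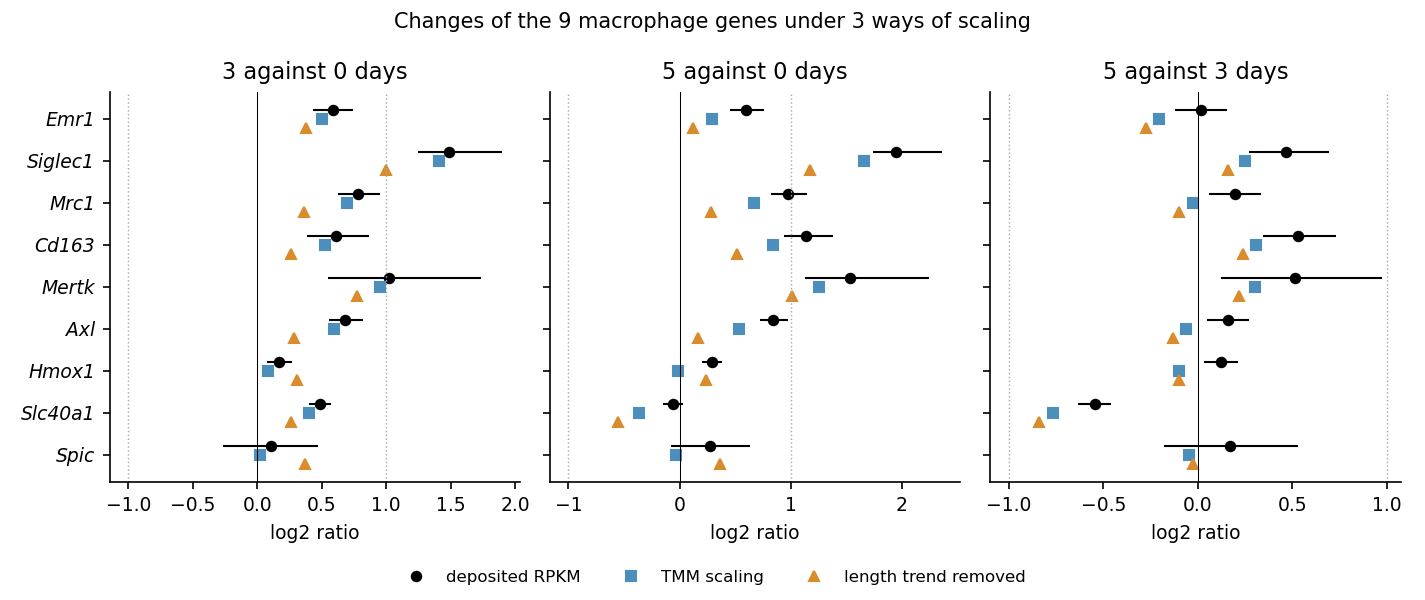
Log2 ratio of each macrophage gene in the 3 comparisons with the deposited RPKM (circles, with counting intervals), under TMM scaling (squares) and with the length trend removed (triangles), with dotted lines at a 2-fold difference. At 5 against 0 days Hmox1 and Spic crossed 0 under TMM, and at 5 against 3 days Emr1, Mrc1, Axl, Hmox1 and Spic crossed 0 under both alternatives.

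The tables also hold other genes by which macrophages are recognised. In the counts of related genes below, the share of all genes was 4.08% higher and 2.41% lower at 3 days, 15.5% and 5.91% at 5 days, and 7.13% and 10.1% at 5 days under TMM. With the length trend removed it was 2.59% and 1.81% at 3 days and 5.05% and 7.61% at 5 days. The largest and lowest ratios named are those among genes that reached 1 RPKM. Csf1r, the receptor for the growth factor CSF-1, went from 26.7 RPKM at 0 days to 49.6 and 85.3, and Cd68, a lysosomal protein, from 56.1 to 90.8 and 136. The complement genes C1qa, C1qb and C1qc, which tissue macrophages make in large amounts, did not share this order in the deposited RPKM, with 62.4, 57.6 and 54.4 RPKM for C1qa at 0, 3 and 5 days, 54.1, 48.9 and 52.3 for C1qb and 51.0, 48.6 and 48.8 for C1qc. These are short transcripts, and their log2 ratios at 3 days turned from −0.12, −0.14 and −0.07 to 0.23, 0.20 and 0.28 with the length trend removed. At 5 days they were −0.20, −0.05 and −0.06. Under TMM these became −0.51, −0.36 and −0.37, and with the trend removed −0.02, 0.14 and 0.13. Vcam1, the ligand by which the island macrophage holds erythroblasts, was at 29.4, 39.9 and 48.3 RPKM. Vsig4, a complement receptor of resident macrophages, had 8, 21 and 3 reads. Of a list of 25 other resident macrophage genes, 19 could be counted at 5 days, and 5 were at least 2-fold higher and 3 lower, with a median of −0.02, or 3 and 4 under TMM, with −0.33. At 3 days 0 were higher and 0 lower, with a median of 0.34. Once the length trend was taken out, 2 were higher and 0 lower at 3 days, with a median of 0.28, and 4 higher and 2 lower at 5 days, with 0.07, beside medians of 0.36 and 0.28 for the 9 genes. Msr1, a scavenger receptor, had the largest log2 ratio at 5 days, 1.79 (1.61 to 2.03), and Lyve1, a hyaluronan receptor, the lowest, −1.75 (−2.70 to −1.22). The most abundant of them, Lgals3, Apoe and Sirpa, had −0.25, −0.02 and 0.25, the last of which was −0.05 under TMM.

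In the engulfment pathway around Mertk and Axl, 2 of 24 genes at 3 days and 5 of 25 at 5 days were at least 2-fold higher and 0 lower, with medians of 0.49 and 0.51. At 5 days the counts became 3 higher and 2 lower both under TMM, with a median of 0.20, and with the length trend removed, with 0.02, and at 3 days 0 were called with the trend removed. Lrp1, a receptor for apoptotic cells with a transcript of 14907 bases, went from 2.88 to 7.83 and 15.4 RPKM, with a log2 ratio of 2.38 that fell to 1.29 once the length trend was taken out. Rac2, Calr and Rac1 were the most abundant and had −0.38, 0.50 and 0.79 at 5 days. Cd300lf, a lipid receptor, had the lowest ratio of the deposited RPKM among genes that reached 1 RPKM, −0.97. The bridging ligands were looked at after their values were seen. Gas6, which binds Axl and Mertk, was at 3.15, 2.60 and 1.66 RPKM, and Pros1, which binds Mertk, at 1.46, 2.85 and 6.07. The log2 ratios at 5 days were −0.88 (−1.37 to −0.48) for Gas6 and 1.99 (1.69 to 2.44) for Pros1. Tyro3, the third TAM receptor, had 12, 4 and 7 reads.

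Among genes of haem and iron handling, 3 of 20 were at least 2-fold higher and 1 lower at 5 days, with a median of 0.25. Under TMM 2 of 21 were higher and 2 lower, with −0.13, and with the length trend removed 1 and 1. At 3 days 0 of 19 were called in either direction. The ferritin light chain Ftl1 was at 1851, 1568 and 1425 RPKM and haptoglobin, Hp, at 640, 616 and 425. Lcn2, which binds bacterial iron carriers and belongs to neutrophil granules, fell from 10826 to 3136 RPKM at 5 days, and Slc46a1, a haem and folate importer with 9 reads at 0 days and 40 at 5 days, had the largest log2 ratio, 1.83 (1.09 to 3.38). The row named Fth1, the ferritin heavy chain, holds 2, 5 and 0 reads and is uncertain. Its ID is that of an RNA record and the gene has near-identical copies, but why it has so few reads was not tested. Among genes of NRF2 and BACH1, the factors that switch Hmox1 on and off, 0 of 18 were 2-fold higher and 3 lower at 5 days, with a median of 0.06, and 0 and 5 under TMM, with −0.25. Maff had −2.74 (−3.21 to −2.41) and catalase, Cat, 0.78 (0.69 to 0.87). Prdx1, Gsr and G6pdx, the most abundant, had 0.09, −0.06 and 0.03, and under TMM all 3 were below 0.

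Genes of adhesion and erythroblast support in the island were 2-fold higher in 2 of 14 and lower in 0 at 5 days, and in 1 and 0 at 3 days. With the length trend removed 0 were called in either direction at both times. Itga4, the integrin on erythroblasts and other blood cells that binds Vcam1, went from 20.2 to 41.9 and 65.5 RPKM. At 9833 bases it is a long gene, and removal of the length trend took its log2 ratio from 1.69 to 0.76. Dnase2a, the enzyme that digests expelled nuclei, was at 27.1, 18.1 and 26.0 RPKM, with a log2 ratio of −0.58 at 3 days (−0.76 to −0.41) and −0.06 at 5 days (−0.22 to 0.09). With the deposited RPKM the latter was the lowest among the genes of the list that reached 1 RPKM. Of 20 macrophage transcription factors, a list without PU.1 itself because the tables hold its gene under the older symbol Sfpi1, 2 were 2-fold higher and 1 lower at 5 days (2 and 2 under TMM), and 0 in either direction at 3 days. Tfec went from 4.24 to 13.6 RPKM and Klf2 from 1147 to 92.8. Spib and Irf8, relatives and partners of PU.1, were at 171 and 111 RPKM at 0 days and at 219 and 172 at 5 days.

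**Figure D5:**
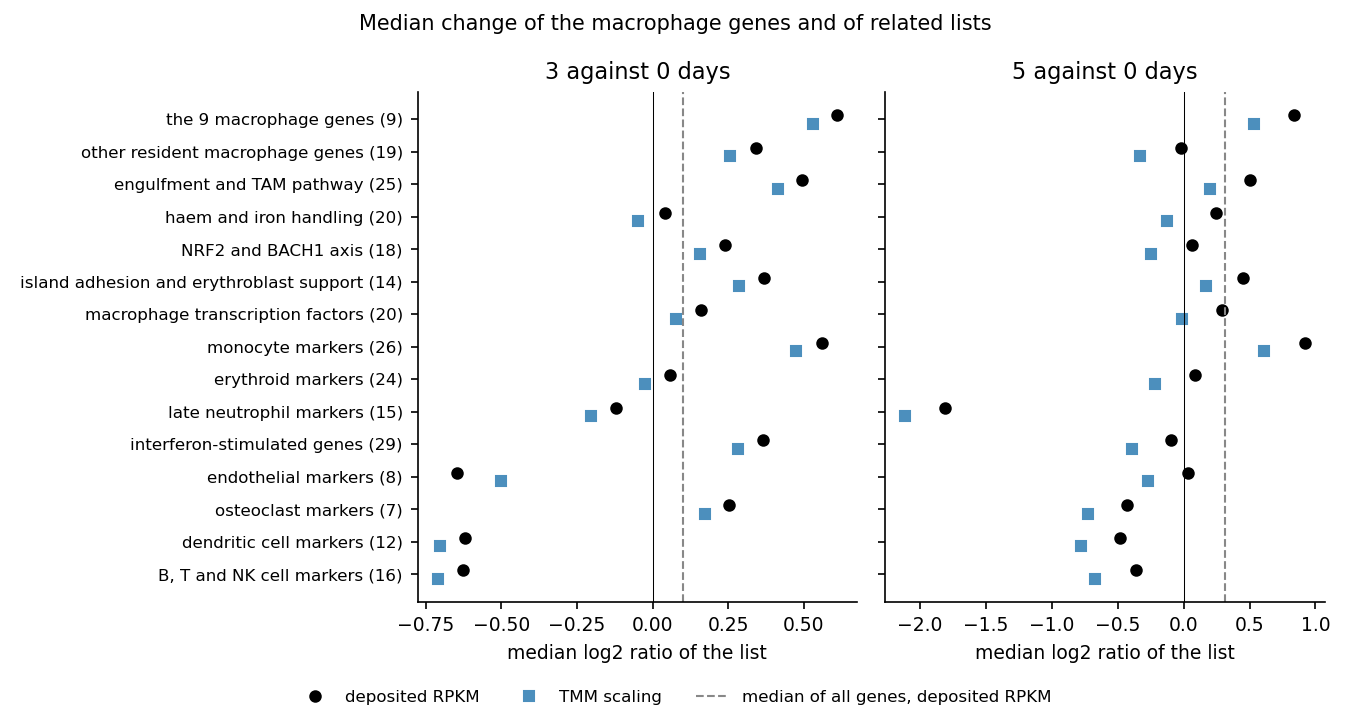
Median log2 ratio of the 9 macrophage genes and of 14 related lists at 3 and 5 days against 0 days, with the number of genes counted at 5 days in brackets, for the deposited RPKM (circles) and under TMM scaling (squares). The dashed line is the median of all genes for the deposited RPKM only, 0.10 at 3 days and 0.31 at 5 days. Under TMM that median was 0.02 and 0.01. The late neutrophil markers lay lowest at 5 days, and the monocyte markers highest.

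Markers of other marrow cells moved in the same libraries. Of 26 monocyte markers, 3 at 3 days and 13 at 5 days were at least 2-fold higher and 0 and 2 lower, with medians of 0.56 and 0.92. At 5 days under TMM 10 were higher and 3 lower, with a median of 0.61. Their summed level went from 8510 to 10195 and 8784 RPKM. Vcan had the largest log2 ratio at 5 days, 3.49 (3.41 to 3.88), and Cd14 the lowest, −1.99 (−2.11 to −1.89). Of 15 late neutrophil markers, 14 fell by 2-fold or more at 5 days, 1 was 2-fold higher and 1 lower at 3 days, and their summed level was 150865, 116913 and 41710 RPKM. Erythroid markers were 2-fold higher in 2 and lower in 4 of 24 at 5 days, with Hba-a1, which has a near-identical copy, at 2253, 1591 and 596 RPKM, and in 1 and 5 under TMM. Against these, the sum of the 9 macrophage genes was 143, 188 and 188 RPKM. Siglec1 is itself known to be induced by interferon. Interferon-stimulated genes were 2-fold higher in 3 and lower in 4 of 29 at 5 days and in 1 and 1 at 3 days, with medians of −0.09 and 0.37. At 5 days 0 were higher and 6 lower under TMM, with a median of −0.39, and 0 and 5 with the length trend removed, with −0.50. A part of interferon in the values of Siglec1 was not tested. Markers of osteoclasts (0 higher and 2 lower of 7), dendritic cells (0 and 3 of 12), lymphocytes (0 and 1 of 16) and endothelium (2 and 0 of 8) gave the remaining counts at 5 days. Under TMM these were 0 and 2, 0 and 4, 0 and 3, and 0 and 1, so that the endothelial count turned from higher to lower. The part of each of these cell types in the values of the 9 genes was not tested.

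The genes nearest to the median profile of the members, which combines values of different members, over the 3 libraries were Edem3, Zfp426, Aim1, Ap3d1 and Dennd6a, and 135 of 8192 genes with an average of at least 5 RPKM lay within a distance of 0.1 on the 2 log2 ratios against 0 days. For Emr1, the receptor with the highest mean over the 3 libraries, closely followed by Axl, the nearest were Athl1, Susd1, Asxl1, Grk6 and Hnrnph3, and 110 of 8191 lay within 0.1.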

How the data were processed

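Flushed BM cells of mice given LECT2 for 0, 3 or 5 days were sequenced with 1 library each, prepared with the Illumina TruSeq RNA kit. The authors deposited 3 tables, 1 for each pair of days, with whole read counts, the gene length, RPKM, and a log2 ratio with its p-value and false discovery rate for each gene. The authors' comparison columns were not used. The methods name Cufflinks 1.0.3 and the submitters' processing notes the genome build mm8, and the aligner is not given in the sources used here. The deposited RPKM equalled counts divided by gene length and by the reads on all 17559 rows within 0.1%, apart from 18 rows at 0 days and 14 at 3 days, none of them a member. RPKM of genes without reads, listed at 0.01, were set to 0.

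Changes are log2 ratios on the scale of RPKM + 0.1, so that changes of low genes are understated. Intervals of ratios are exact (Clopper-Pearson) and those of levels are Poisson, at 95%, and cover counting error only. The intervals of ratios rest on read counts without the added 0.1, so that the ratio of a low gene is not centred in its interval. Folds printed for members are ratios of RPKM without that addition. Genes at least 2-fold different were counted where 1 of the libraries compared reached 1 RPKM, and a gene with 3 reads or fewer was treated as at the floor. A gene name on several rows was represented by its most abundant row. The tables give no coordinates, so positions came from GENCODE M21 and promoters from RefSeq, both GRCm38. With 1 library per day no test was run. The members and lists were chosen with earlier results of these data known. Genes named from the lists mostly come from up to 3 with the highest mean RPKM and those with the largest rise and fall at 5 days. Not all of these are printed. The markers set for macrophages are named singly, and most of those set for other cell types are not. The 5 genes nearest to the members' median profile, and to Emr1, were taken by Euclidean distance over the 2 log2 ratios.

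Alternatives were pseudocounts of 1 and 0.01, TMM factors (edgeR 4.0.16), median-of-ratios factors (DESeq2 1.42.0), reads outside the 100 most abundant genes, the sum of rows, removal of a lowess trend (span 0.3, statsmodels 0.14.6) on length, minimums of 5 RPKM or none, a 1.5-fold threshold, and members averaging at least 1 RPKM. Python 3.11.15 and R 4.3.3 were used, and the steps were tested on simulated data.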

Additional observations from a re-analysis of the deposited data

How the results depend on the processing

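The median log2 ratio of the 9 macrophage genes stayed above 0 after 3 and after 5 days in each alternative tried. The sum of rows and the restriction to members averaging at least 1 RPKM could not move it. Each member has 1 row, and all 9 reached that average. Removal of the length trend took it from 0.61 to 0.36 at 3 days and from 0.84 to 0.28 at 5 days. TMM gave 0.53 at 5 days, the median-of-ratios factors 0.55 and the reads outside the 100 most abundant genes 0.64. Between 5 and 3 days its sign turned, from 0.17 to −0.05 with TMM, −0.04 with the median-of-ratios factors and −0.10 after removal of the length trend. The number of members at least 2-fold higher at 3 days was 2. It was 1 with a pseudocount of 1, with TMM, with the median-of-ratios factors, with the 100 most abundant genes left out and after removal of the length trend, 0 of 7 with a minimum of 5 RPKM (2.83% of all genes) and 5 at a 1.5-fold threshold (16.4%). At 5 days it was 3, and 2 with TMM, with the median-of-ratios factors, with the 100 most abundant genes left out and after removal of the length trend, 1 with a pseudocount of 1, 1 of 7 with a minimum of 5 RPKM (14.4% of all genes) and 6 at 1.5-fold (34.5%). The minimum of 5 RPKM leaves out Siglec1 and Mertk by construction. Of the 27 log2 ratios of single members, 14 moved beyond their counting interval with TMM, all downward, and 21 after removal of the length trend, 20 of them downward. The sign changed with TMM for Hmox1 and Spic at 5 against 0 days and for Emr1, Mrc1, Axl, Hmox1 and Spic at 5 against 3 days, and the cause was not tested. Relative counting error is largest for Mertk, with 37 reads at 0 days. No paired analysis was possible because each day has 1 library, and for the same reason no replicate could be left out.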
